A study of Arabidopsis thaliana with 5 samples.

Results

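The genes described here are 10 regulators of the response to light and shade in Arabidopsis, out of 27444 protein-coding genes on the nuclear chromosomes. They were taken as a fixed list of loci, which was proposed with results of these data in view. They encode the basic helix-loop-helix (bHLH) factors PIF1 (AT2G20180), PIF3 (AT1G09530), PIF4 (AT2G43010), PIF5 (AT3G59060) and PIF7 (AT5G61270), the bZIP factors HY5 (AT5G11260) and HYH (AT3G17609), and the helix-loop-helix proteins HFR1 (AT1G02340), PAR1 (AT2G42870) and PAR2 (AT3G58850). For each gene, all peaks within 2 kb of the annotated gene were listed from ChIP-Seq of 2 proteins that act together in cell size control, the GRAS family factor SCL28 and the AP2-type factor AtSMOS1.

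Seedlings carried SCL28-GFP (labelled E1M-GFP) or AtSMOS1-GFP (labelled SNOS1-GFP), and chromatin of whole seedlings was precipitated with an antibody against GFP in 2 replicates per line. The input was total chromatin of wild-type Col0 seedlings (WT), with 1 sample and no precipitation. The sample labels give growth in long days with 16 h of light and 8 h of darkness, whereas the general Methods of the study name continuous light. No sample is labelled as dark-grown or shaded. AtSMOS1-GFP was driven by its own promoter. For SCL28-GFP the study names the RPS5A promoter, which is active in dividing cells, in its Results and in a supplementary ChIP-Seq legend. Its Methods name the SCL28 promoter.

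PIFs bind DNA at the G-box, a hexamer with the letters CACGTG, and promote hypocotyl and petiole elongation in darkness and shade. Phytochromes, the red and far-red photoreceptors, bind PIFs in light and cause their degradation or inactivation. HY5 and its homolog HYH act in the opposite direction by promoting development in light, and HY5 also recognizes the G-box. HFR1, PAR1 and PAR2 form dimers with PIFs or related bHLH proteins and thereby keep them from DNA, which limits the response to shade.

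The lists held 488 and 396 nuclear peaks for SCL28 in replicates 1 and 2, 5438 and 6934 for AtSMOS1, and 5695 for the WT input. Each peak has a fold enrichment, which is a ratio of the signal at its summit over the local background that the peak caller estimated. The lists give no read counts, so the depth behind a peak is not known from them. The study's Reporting Summary gives uniquely mapped reads per ChIP sample, more for SCL28 than for AtSMOS1 in each replicate. Inside both replicate 2 lists the peaks are named for the other protein (396 and 6934 nuclear peaks). Each list was taken for the protein in its sample label. Both lists labelled SCL28 had a peak of about the length of a coding sequence on SCL28 (2007 and 2003 bp) and a peak at the RPS5A promoter (fold enrichment 7.20 and 5.70), which neither AtSMOS1 list had. Both lists labelled AtSMOS1 had a peak that covered 100% of the AtSMOS1 gene (fold enrichment 15.2 and 14.5).

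AtSMOS1 peaks were found near all 10 light regulator genes when a peak in either replicate was counted, beside 34.3% of all protein-coding genes, and SCL28 peaks near none. In AtSMOS1 replicate 1, 8 of the 10 genes had a peak within 2 kb, beside 24.5% of all protein-coding genes. In replicate 2, 9 of the 10 genes had a peak, beside 30.8% of all protein-coding genes. PIF1, PIF4, PIF5, PIF7, HY5, HFR1 and PAR1 had a peak in both replicates, which makes 7 of 10 genes, beside 21.1% of all protein-coding genes. PIF3 and HYH had a peak in replicate 2 only, and PAR2 in replicate 1 only. With a stricter threshold, a −log10 q of 5 or more, PIF4, PIF5, HFR1 and PAR1 remained, 4 of 10 genes beside 9.91% of all protein-coding genes. No enrichment test was made on these counts because of how the genes were proposed.

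**Figure D1:**
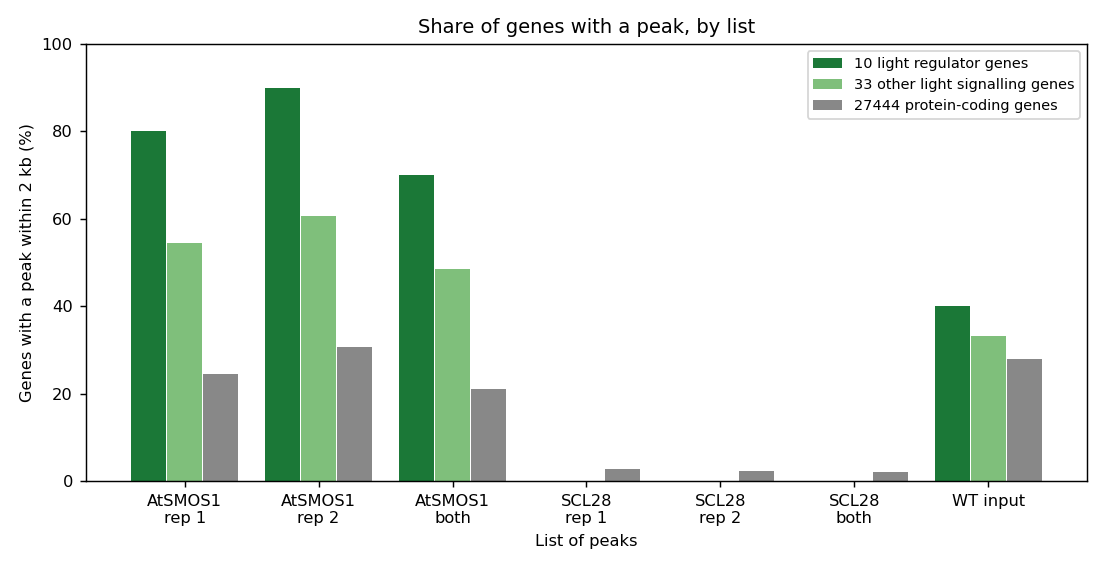
Percentage of genes with a peak within 2 kb (y axis) in each list of peaks (x axis), for the 10 light regulator genes, the 33 other light signalling genes and all 27444 protein-coding genes. The bars for the 10 genes reach 80%, 90% and 70% in the AtSMOS1 lists and 0% in the SCL28 lists.

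None of the 10 genes had an SCL28 peak within 2 kb in either replicate. Over all protein-coding genes the shares were 2.77% in SCL28 replicate 1, 2.27% in replicate 2 and 2.07% in both, so that 0 of 10 is close to these shares. The closest SCL28 peaks lay upstream of HFR1, at 3.62 kb in replicate 1 and 3.68 kb in replicate 2, with a fold enrichment of 3.54 and 2.94. For the other 9 genes, the distance to an SCL28 peak ran from 21.9 kb at PAR2 to 920 kb at PIF1. A gene without a peak is one for which none passed the caller's threshold, and the lists hold nothing on weaker signal.

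In the WT input, 4 of the 10 genes had a peak within 2 kb (PIF1, PIF3, PAR1 and PAR2), beside 27.9% of all protein-coding genes. The 5 input peaks lay inside these genes except for a peak 527 bp beyond the end of PIF1, and none of the 35 AtSMOS1 peaks near the 10 genes overlapped an input peak. Such overlap was rare in the whole lists too, at 27 of 5438 AtSMOS1 peaks in replicate 1 and 37 of 6934 in replicate 2. The study's Reporting Summary gives the input as the control in peak calling, which makes such overlap unlikely in advance. No GFP precipitation from plants without a transgene is among the samples. Whether the antibody brings down any of these sites in such plants was therefore not tested. The SCL28-GFP samples, also precipitated with an antibody against GFP, had a peak within 2 kb of 0 of the 10 genes. Over all protein-coding genes the shares were only 2.77% and 2.27% in SCL28 replicates 1 and 2. This count therefore cannot decide the question.

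Sequences are shown for 5 sites called in both AtSMOS1 replicates at which the letters of a PIF-binding motif lay near a summit, a G-box at HFR1 and PIF5 and the related CATGTG at PAR1 and HY5. Sites called in both replicates without either motif near a summit, such as that of PIF1 and the farther site of PAR1, are not shown. All are taken from the TAIR10.1 genome, whose chromosomes 1 to 5 carry the TAIR10 coordinates, and run 5′ to 3′ on the strand of the gene. Capitals mark each CACGTG and each CATGTG, which is the PIF-binding E-box (PBE-box) and is read as CACATG on the other strand. The windows at HFR1 are chr1:468807-469007, centred on the replicate 1 summit of the site nearer to the gene, and chr1:469248-469448, centred on the replicate 2 summit of the farther site. The window at PIF5 is chr3:21827630-21827790, beyond the 3′ end of the gene, and the window at PAR1 is chr2:17838263-17838463. The window at HY5 is chr5:3595074-3595218 and ends at the base before the transcription start site (TSS). All 5 windows are on the minus strand.
HFR1 nearer site: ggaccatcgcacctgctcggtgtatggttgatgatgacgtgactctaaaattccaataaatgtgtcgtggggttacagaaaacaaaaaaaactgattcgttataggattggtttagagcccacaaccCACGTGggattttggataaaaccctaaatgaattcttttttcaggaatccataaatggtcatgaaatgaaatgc
HFR1 farther site: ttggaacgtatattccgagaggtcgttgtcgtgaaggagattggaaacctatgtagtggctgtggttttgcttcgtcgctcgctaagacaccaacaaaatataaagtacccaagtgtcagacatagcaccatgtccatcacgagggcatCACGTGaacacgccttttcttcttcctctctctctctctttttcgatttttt
PIF5 3′ site: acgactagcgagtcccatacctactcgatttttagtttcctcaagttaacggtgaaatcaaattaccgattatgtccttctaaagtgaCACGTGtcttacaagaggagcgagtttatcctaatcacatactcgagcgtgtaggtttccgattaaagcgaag
PAR1 upstream site: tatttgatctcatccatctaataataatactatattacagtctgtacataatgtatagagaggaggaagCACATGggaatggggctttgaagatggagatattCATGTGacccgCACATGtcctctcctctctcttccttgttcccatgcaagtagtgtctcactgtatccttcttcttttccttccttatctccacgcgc
HY5 upstream site: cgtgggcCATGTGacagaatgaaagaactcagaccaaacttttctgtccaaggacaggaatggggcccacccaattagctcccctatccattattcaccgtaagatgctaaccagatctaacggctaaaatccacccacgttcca

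PIF4 and PIF5, which are close paralogs, each had a G-box in the 5′ part of the annotated gene inside the AtSMOS1 peaks of both replicates. Not all transcripts of either gene reach this part. The G-box of PIF4 starts 239 bp and that of PIF5 starts 268 bp downstream of the annotated TSS. With the G-boxes in register, 20 of 30 bases are identical, and the capitals mark the G-box. This count includes the bases of the G-box, which match by the choice of the sites, and no other pair of sites was compared. The PIF4 site is chr2:17886328-17886357 on the plus strand and the PIF5 site is chr3:21830552-21830581 on the minus strand.
PIF4 site: cccagaacttgcCACGTGtcgttcatttca
PIF5 5′ site: ctgacaattcgcCACGTGtcggtcatcctg

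PIF1 (chr2:8704024-8707009, minus strand), also called PIL5, restrains seed germination in the dark. Its AtSMOS1 peak had a fold enrichment of 3.40 in replicate 1 and 3.47 in replicate 2 (mean 3.43 ± 0.049, SD, n = 2), with the summit 1565 bp upstream of the TSS in replicate 1 and 1541 bp in replicate 2. The replicates therefore marked the same place, 24 bp apart, in AT-rich DNA with 27.9% GC around the summit. The level was ordinary, since these peaks stood at percentiles 36.0 and 55.8 of their lists. In the WT input, PIF1 had a peak of 4.29 in a coding exon and a peak of 3.23 beyond its end, both away from the AtSMOS1 site.

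PIF3 (chr1:3075768-3079654, plus strand), the founding member of the family, had no AtSMOS1 peak in replicate 1, where the closest peak lay 2.85 kb away. In replicate 2 it had a peak of 2.66 with its summit 132 bp upstream of the TSS and a peak of 2.60 at 940 bp downstream of it, in a 5′ UTR exon of all 6 annotated transcripts. Both were low peaks for their list, at percentiles 14.8 and 12.8. An input peak of 2.81 lay between them, at 468 bp downstream of the TSS.

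PIF4 (chr2:17886101-17889087, plus strand) promotes elongation in shade and in warmth. Its highest AtSMOS1 peak had a fold enrichment of 4.14 in replicate 1 and 4.79 in replicate 2 (mean 4.46 ± 0.46, SD, n = 2), and its summit, 200 bp into the gene in replicate 1 and 304 bp in replicate 2, lay in a 5′ UTR exon of 3 of 5 transcripts. Replicate 1 had a separate peak of 3.62 with its summit 317 bp upstream of the TSS, and the 870 bp peak of replicate 2 spanned both. A further peak of 3.16, 342 bp beyond the end of the gene, was called in replicate 2 only.

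PIF5 (chr3:21827905-21830837, minus strand), also called PIL6, acts with PIF4 in elongation and was the gene with the most peaks. Replicate 1 had 6 AtSMOS1 peaks within 2 kb of it, a number reached by 10 protein-coding genes (0.0364%), PIF5 included. Replicate 2 had 3 wider peaks there, a number reached by 2.60% of protein-coding genes, and 5 of the 6 replicate 1 peaks lay on them. The peaks thus fell into 3 areas, around the TSS, further upstream, and at the 3′ end.

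Around the TSS of PIF5, the fold enrichment was 4.18 in replicate 1 and 4.41 in replicate 2, and the summits lay 175 bp and 368 bp into the gene. The replicate 1 summit was outside 3 of 4 transcripts and the replicate 2 summit outside 1 of 4, and both lay in a 5′ UTR exon of the rest. At the 3′ end, it was 4.46 in replicate 1, with the summit 277 bp beyond the end of the gene, and 4.61 in replicate 2, with the summit 195 bp beyond it. The 3′ area also held a replicate 1 peak of 3.62 in a coding exon of all 4 transcripts, which the wide peak of replicate 2 overlapped, and a replicate 1 peak of 3.44 inside PAO3, 687 bp beyond the end of PIF5, which no peak of replicate 2 overlapped. The values at the 3′ site were the highest at PIF5 in each replicate (mean 4.54 ± 0.11, SD, n = 2), so that the 3′ site stood a little above the site at the TSS in both. The annotated gene nearest to the 3′ peak of replicate 1 was the neighbour PAO3, 2 bp away, whereas the wider peak of replicate 2 reached into PIF5. Upstream, replicate 1 had peaks of 3.35 and 4.11 with summits 453 and 1007 bp from the TSS, and replicate 2 had a peak of 3.10 with its summit at 1132 bp, closest to AT3G59068.

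PIF7 (chr5:24638491-24640765, minus strand), which acts early in the response to shade, had a peak in each replicate but not at the same place. The summit of replicate 1 lay 21 bp upstream of the TSS with a fold enrichment of 3.45, and that of replicate 2 lay 1012 bp upstream with 2.62. Their mean of 3.03 ± 0.59 (SD, n = 2) joins 2 different places, so this SD is not the spread of replicates at a single site. When peaks of the replicates had to overlap by 1 bp, PIF7 dropped out and 6 genes remained, beside 20.1% of all protein-coding genes.

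**Figure D2:**
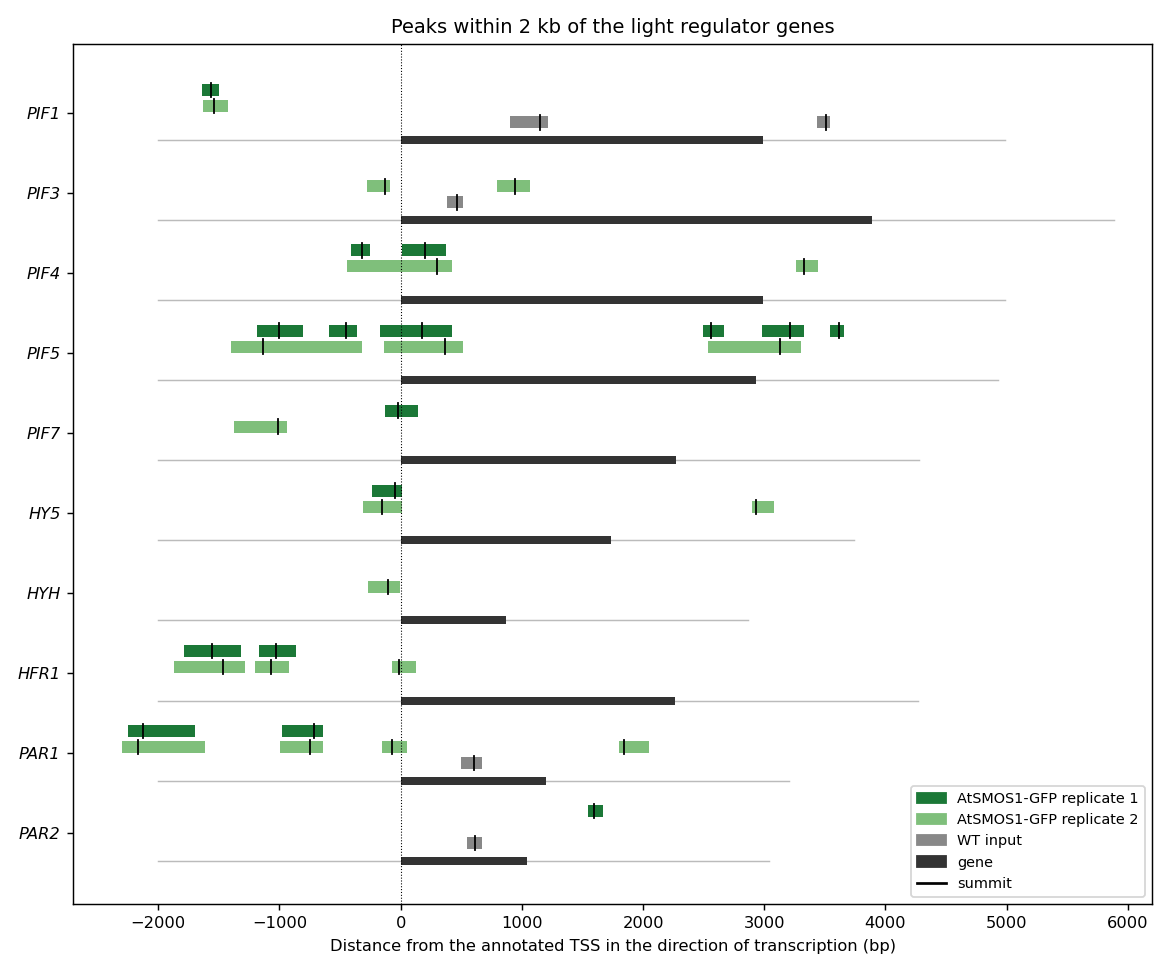
Peaks within 2 kb of each gene, drawn by the distance from the TSS in bp (x axis), for AtSMOS1-GFP replicate 1, AtSMOS1-GFP replicate 2 and the WT input. Black ticks are summits, dark bars are genes and thin lines are the windows searched. SCL28 lists are not drawn because they held no peak here. Overlapping peaks of both replicates are seen at PIF1, PIF4, PIF5, HY5, HFR1 and PAR1.

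HY5 (chr5:3593335-3595073, minus strand), the bZIP factor that promotes development in light, had its AtSMOS1 peak at the promoter. The fold enrichment was 2.87 in replicate 1 and 3.59 in replicate 2 (mean 3.23 ± 0.51, SD, n = 2), and the summits lay 45 and 150 bp before the TSS. These values stood at percentiles 12.2 and 61.3 of their lists, which makes it a low peak in replicate 1. A further peak of 2.74 was called in replicate 2 only and lay within the neighbouring gene AT5G11250. HYH (chr3:6023844-6024710, plus strand), which overlaps with HY5 in function, had a peak of 2.46 in replicate 2 with its summit 104 bp upstream of the TSS, at percentile 7.74, and no peak in replicate 1 closer than 6.98 kb.

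At HY5, a match to the 12-letter motif that the study derived from common targets of SCL28 and AtSMOS1 starts 11 bp downstream of the TSS. It is the only match to this motif within 2 kb of any of the 10 genes. The motif was present in 0.146% of promoter windows of 201 bp over all protein-coding genes, in 20.9% and 25.3% of summit windows of SCL28 in replicates 1 and 2, and in 1.05% and 0.923% of those of AtSMOS1. No SCL28 peak lay within 87.8 kb of HY5, and the match itself was outside the AtSMOS1 peak of replicate 1, by 3 bp, and outside that of replicate 2. It lay 61 bp from the summit of replicate 1. The site is chr5:3595042-3595071 on the minus strand, with the match in capitals.
HY5 motif match: ctcaattgcCTTTGGATCCTTgtatttcct

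HFR1 (chr1:465616-467880, minus strand) restrains PIFs in shade. Within 2 kb, it had the highest AtSMOS1 fold enrichment of the 10 genes in each replicate, 4.77 and 5.73 (mean 5.25 ± 0.68, SD, n = 2). This farther site had summits 1559 bp upstream of the TSS in replicate 1 and 1468 bp in replicate 2, and its −log10 q was 9.11 and 20.5. The nearer site had 4.58 in replicate 1 and 3.96 in replicate 2, with summits 1027 and 1069 bp upstream, 42 bp apart. Both sites were present in both replicates, and the farther site in replicate 2 was the only peak among the 35 in the highest 10% of its list, at percentile 95.4. A further place, 15 bp upstream of the TSS with 3.23, was called in replicate 2 only. AT1G02350 is nearer than HFR1 to both sites, and it lies 154 bp from the farther peak in replicate 1 and 72 bp in replicate 2.

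PAR1 (chr2:17836416-17837618, minus strand) had AtSMOS1 peaks upstream in both replicates. The farther site had 4.60 in replicate 1 and 4.15 in replicate 2 (mean 4.37 ± 0.32, SD, n = 2), with summits 2125 and 2166 bp upstream of the TSS, so that part of the peak but not its summit was within 2 kb. The nearer site had 3.87 and 2.86, with summits 713 and 745 bp upstream and inside AT2G09405, which is annotated as a long non-coding RNA. MPK20, which encodes a mitogen-activated protein kinase, is nearer to the farther site than PAR1, 300 bp away in replicate 1 and 251 bp in replicate 2. Replicate 2 had 2 further peaks, of 3.21 at 73 bp upstream of the TSS and of 2.24 at 641 bp beyond the end of the gene. An input peak of 3.28 lay in the coding exon of PAR1, apart from these.

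PAR2 (chr3:21759350-21760390, minus strand), the paralog of PAR1, had an AtSMOS1 peak in replicate 1 only, with a fold enrichment of 3.08 and a summit 553 bp beyond the end of the gene. It was a low peak for its list, at percentile 19.8, with a −log10 q of 2.38. The summit lay in the neighbouring gene PMD1, 3 bp from the middle of a G-box, at chr3:21758786-21758815. In replicate 2, the closest peak was 2.45 kb from PAR2. In its coding exon PAR2 had an input peak of 3.16.
PAR2 site: acttgctttaaaCACGTGggtattcaggac

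Ordered by the mean fold enrichment of AtSMOS1, the 7 genes with peaks in both replicates were HFR1 (5.25), PIF5 (4.54), PIF4 (4.46), PAR1 (4.37), PIF1 (3.43), HY5 (3.23) and PIF7 (3.03). The mean and SD of PIF7 join peaks at 2 places that did not overlap. The gap between PAR1 and PIF1 is larger than the SD of either gene, and the values of all neighbours on each side of it, apart from HFR1 and PIF5, differed by less than the larger SD of the pair. HFR1 exceeded PIF5 by slightly more than the SD of HFR1, and its replicate 1 value of 4.77 was above both values of PIF5. This order and the gap apply to 2 kb either side of the gene. Within 1 kb, HFR1 (4.27) stood below PIF5 (4.54) and PIF4 (4.46). PAR1 was lower there, at 3.54, and PIF1 had no peak in both replicates. A difference between 2 genes with 2 replicates each cannot reach p < 0.05 in an exact permutation test, and none was run. The highest value per gene had a median of 3.79 over the 8 genes with a peak in replicate 1, beside 3.84 over 6717 protein-coding genes with a peak. In replicate 2, the median was 3.59 over 9 genes, beside 3.53 over 8462. The heights at the 10 genes thus lay close to those at other genes with a peak.

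**Figure D3:**
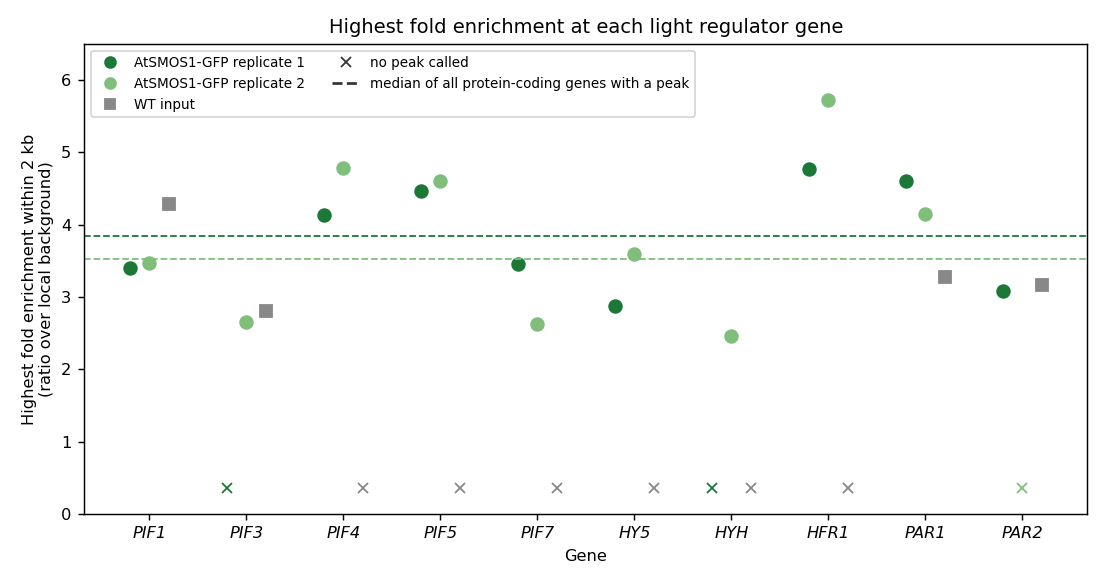
Highest fold enrichment within 2 kb of each gene (y axis, ratio over local background) for AtSMOS1-GFP replicate 1, AtSMOS1-GFP replicate 2 and the WT input. Crosses near the bottom mark lists without a peak and have no value. Dashed lines are the medians over all protein-coding genes with a peak in AtSMOS1 replicate 1 (3.84) and replicate 2 (3.53). HFR1 is highest in both replicates. PIF4, PIF5, HFR1 and PAR1 lie above the line of each replicate, HY5 lies below it in replicate 1 and just above it in replicate 2, and every AtSMOS1 value of PIF1, PIF3, PIF7, HYH and PAR2 lies below.

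Replicates agreed at these genes about as often as elsewhere. Of the 16 AtSMOS1 peaks of replicate 1 near the 10 genes, 13 (81.2%) overlapped a peak of replicate 2, and over the whole list it was 81.1%. Of the 19 peaks of replicate 2, 10 (52.6%) overlapped a peak of replicate 1, compared with 61.1% over the whole list. The summits of overlapping peaks lay a median of 104 bp apart near the 10 genes and 50 bp over the whole list, and the longest distance near the 10 genes was 679 bp, at PIF5, where narrow peaks of replicate 1 fell in a wide peak of replicate 2. Peaks of replicate 2 were wider in general, with a median of 286 bp, against 197 bp in replicate 1.

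Most summits lay upstream of the genes, 10 of 16 (62.5%) in replicate 1 and 12 of 19 (63.2%) in replicate 2. Over all pairs of a protein-coding gene and a peak within 2 kb of it, the shares were 47.4% and 46.8%. Summits within 500 bp of the TSS made up 37.5% and 36.8% for the 10 genes, and 29.0% and 29.1% for all protein-coding genes. Peaks in these windows are often shared with a neighbour. For 19 of the 35 AtSMOS1 peaks, the annotated gene nearest to the peak was the light regulator gene itself, 7 in replicate 1 and 12 in replicate 2. No share over all protein-coding genes is set beside this count, so it gives no comparison with other genes.

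Within 2 kb of the 10 genes there were 13 G-boxes, and 6 of them (46.2%) lay inside AtSMOS1 peaks of both replicates. These were the G-boxes 239 bp downstream of the TSS of PIF4, 268 and 3135 bp downstream of that of PIF5, 1000 and 1419 bp upstream of that of HFR1 and 937 bp upstream of that of PAR1. In replicates 1 and 2, the G-box at the nearer HFR1 site lay 30 and 72 bp from the summit, and that at the farther site 143 and 52 bp. The distances were 71 and 11 bp at the 3′ site of PIF5 and 96 and 97 bp at its 5′ site. They were 41 and 63 bp at PIF4, and 221 and 189 bp at PAR1. In replicate 1 alone, 8 of the 13 G-boxes (61.5%) were in a peak, in replicate 2 alone 7 (53.8%), and none was in an input peak.

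Over all protein-coding genes, 12471 G-boxes were found by the same search, of which 8.03% lay in AtSMOS1 peaks of replicate 1, 12.7% in those of replicate 2, 6.92% in both and 2.77% in input peaks. Peaks also covered more of the DNA around the 10 genes. They took 7.30% of the bases searched in replicate 1 and 12.3% in replicate 2, compared with 1.15% and 2.12% for all protein-coding genes. In both sets of genes, the share of G-boxes in AtSMOS1 peaks was above the share of bases. The G-boxes of PIF1 and PIF3, inside those genes, were in no AtSMOS1 peak, and HY5 and HYH had no G-box within 2 kb.

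**Figure D4:**
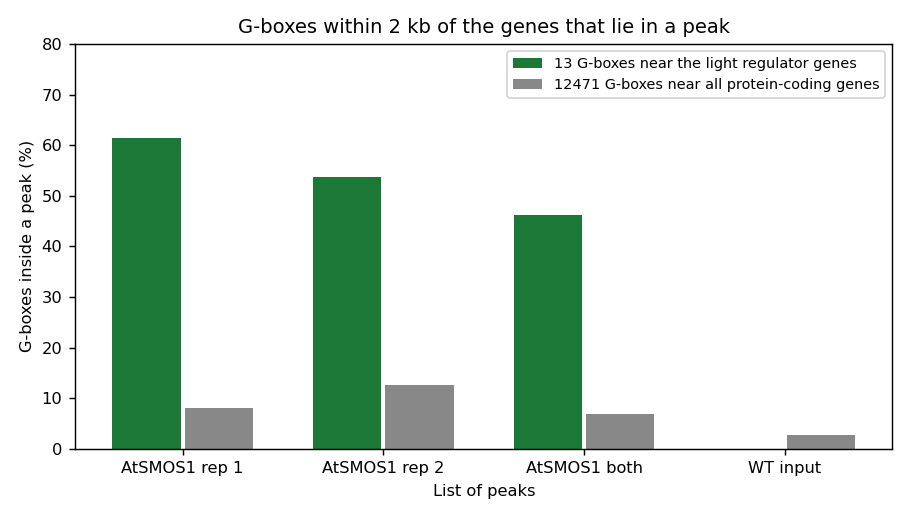
Percentage of G-boxes within 2 kb of the genes that lie inside a peak (y axis) in each list (x axis), for the 13 G-boxes near the 10 light regulator genes and the 12471 near all protein-coding genes. The bars for the 10 genes reach 61.5%, 53.8% and 46.2% in the AtSMOS1 lists and 0% in the WT input.

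Counted by windows of 201 bp centred on the summits, 5 of 16 (31.2%) AtSMOS1 peaks of replicate 1 near the 10 genes and 5 of 19 (26.3%) of replicate 2 held CACGTG, searched on both strands. The same windows held it at 14.1% and 15.1% of all AtSMOS1 peaks, 9.22% and 10.6% of SCL28 peaks and 5.41% of input peaks, and promoter windows of this length held it at 5.66% of protein-coding genes. The windows with CACGTG near the 10 genes belonged to PIF4, PIF5, HFR1 and PAR2 in replicate 1. In replicate 2 they belonged to PIF4, PIF5 and HFR1. PIF5 held more than 1 of them in each replicate, and HFR1 in replicate 2. CATGTG was present in 3 of 16 (18.8%) and 3 of 19 (15.8%) windows near the 10 genes, close to its share of 17.1% and 17.0% in all AtSMOS1 peaks, and in 9.04% of promoter windows. The summit window of the nearer PAR1 site held 3 matches to CATGTG in each replicate, the closest 5 bp from the summit of replicate 2. These matches describe letters in the windows, and which protein is bound there was not measured.

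Other genes of light signalling were listed in the same way, 33 in all. AtSMOS1 peaks were present in both replicates at 16 of them (48.5%), beside 21.1% of all protein-coding genes. SCL28 peaks were present at none in either replicate, beside 2.77% and 2.27% of all protein-coding genes in replicates 1 and 2. All 5 HD-ZIP class II genes had AtSMOS1 peaks in both replicates. These factors are induced by shade and include ATHB2, whose highest peak had a fold enrichment of 7.46 in replicate 1 and 7.75 in replicate 2 (mean 7.60 ± 0.21, SD, n = 2), above every value at the 10 regulators. Of 8 photoreceptor genes, 4 had a peak in both replicates (PHYA, PHYB, CRY1 and UVR8). So did 2 of 6 genes of the COP1, SPA and DET1 repressors (SPA1 and SPA4), 2 of 6 other bHLH genes (PIL1 and PIF6), 1 of 4 B-box genes (BBX22), and 2 of 4 genes for nuclear import of phytochrome A and its activation (FHL and FAR1). The genes in parentheses that are not among the 6 with the highest values were named after their values were seen.

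Among these 33 genes, ATHB2 was followed by BBX22, a B-box partner of HY5, with 6.09 and 7.39 (mean 6.74 ± 0.92, SD, n = 2), and PIL1, a bHLH gene induced quickly by shade, with 5.16 and 5.70. CRY1, a blue-light photoreceptor, had 4.35 and 5.88, at a site beyond its 3′ end, and also had an input peak of 4.54. ATHB2 and PIL1 had input peaks within 2 kb too, of 2.92 and 2.96. HAT1 and HAT2, relatives of ATHB2, had 6.09 and 4.14, and 5.32 and 4.73.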

How the data were processed

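The authors trimmed single-end reads (Trimmomatic 0.38), aligned them to TAIR10 (Bowtie2 2.3.5), filtered them (SAMtools 1.9) and called peaks per sample with MACS2 2.2.7.1 at a q value cutoff of 0.05. The Methods and the Reporting Summary do not match on which aligner, extension length and peak type were used, and the control for the input itself is not given in the sources used here. The fold enrichment is a ratio computed by the authors' caller at the summit, and the −log10 p and −log10 q values and the score, which is derived from q, are as deposited. Only the fold enrichment, −log10 q and positions were used, without further normalization.

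Peaks on chromosomes 1 to 5 were compared with the TAIR10.1 annotation in python 3.11.15, with figures by matplotlib 3.10.9. A gene was counted when at least 1 bp of a peak lay within 2 kb of its annotated ends. The TSS is the outermost annotated start. All 10 genes and all their peaks are named. Of 33 other light genes, those with SCL28 peaks in both replicates and the 6 with the highest mean AtSMOS1 value are named, with the 3 genes most like the member of highest AtSMOS1 mean. Members and lists were chosen with earlier results of these data known. Motifs were searched as exact matches on both strands in 201 bp around summits and within 2 kb of genes. Interval overlap and motif search were tested on simulated data. No test was fitted, because lists of peaks hold no counts. The replicates are described in the Reporting Summary as biological. The lists do not give the depth, so no counting interval is given. Alternatives changed the window, the q threshold, input overlap, the overlap between replicates, the genes in the background and the replicates used.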

Additional observations from a re-analysis of the deposited data

How the results depend on the processing

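The number of light regulator genes with AtSMOS1 peaks in both replicates was 7, beside 21.1% of all protein-coding genes. It was 6 beside 15.7% within 1 kb of the gene, 9 beside 36.0% within 5 kb, 7 beside 15.4% within 2 kb of the TSS and 7 beside 20.3% when the summit had to lie in the window. A −log10 q of at least 5 lowered it to 4, beside 9.91% of all protein-coding genes, and lowered the number with an input peak to 1, beside 13.4%. Leaving out a replicate gave 8 to 9 genes for AtSMOS1, beside 24.5% to 30.8%, and 0 for SCL28. With 50% of both peaks overlapping, 5 genes were counted, beside 15.4% of all protein-coding genes. With 5 kb either side of the gene, SCL28 had 1 gene, HFR1, beside 3.94%, and 0 under every other alternative run. The overlap of 1 bp between replicates was added after the data were examined. Of the mean highest fold enrichments, 3 moved by over 1 SD with another window. The mean at PIF5 was 4.30 within 2 kb of the TSS, and those at HFR1 and PAR1 were 4.27 and 3.54 within 1 kb of the gene. Within 1 kb, HFR1 thus no longer had the highest mean. No paired analysis was possible because the results are counts and values without a test. The lists do not show signal below the caller's threshold, so a missing peak is not a measured absence.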

Other observations

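PIF4 and PAR1 lie on chromosome 2 with 48.5 kb and 15 protein-coding genes between them, and their paralogs PIF5 and PAR2 lie on chromosome 3 with 67.5 kb and 21 protein-coding genes between them. Within the chromosome 2 interval there were 6 and 5 AtSMOS1 summits in replicates 1 and 2 and 2 input summits, and within the chromosome 3 interval 5 and 2 AtSMOS1 summits and 5 input summits. These counts include summits already described at PAR1, PIF4 and PIF5. No density over the genome is set beside them. No SCL28 summit was found in either interval. PIF4 and PIF5 both had AtSMOS1 peaks in both replicates, whereas of the other pair PAR1 had peaks in both and PAR2 in replicate 1 only.

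The protein-coding genes with the pattern most like that of HFR1 over the 5 lists were AT5G08650 and AT5G08660, which share a peak, and AT1G26200. Their Euclidean distances from HFR1 on the log2 scale of the highest fold enrichment were 0.00566, 0.00566 and 0.00828. AT1G26200 had 4.74 in AtSMOS1 replicate 1 and 5.73 in replicate 2, and AT5G08650 had 4.79 and 5.74.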
